A study of Arabidopsis thaliana with 8 samples.

Results

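The 10 genes described here are cell division genes of Arabidopsis that are switched on as cells approach and enter mitosis. They are 5 B-type cyclins, CYCB1;1 (AT4G37490), CYCB1;2 (AT5G06150), CYCB1;3 (AT3G11520), CYCB1;4 (AT2G26760) and CYCB2;1 (AT2G17620), the 4 plant-specific CDKB kinases, CDKB1;1 (AT3G54180), CDKB1;2 (AT2G38620), CDKB2;1 (AT1G76540) and CDKB2;2 (AT1G20930), and KNOLLE (AT1G08560). They were chosen by these locus identifiers, with no cut on their measured values but with earlier results of these data known. All 10 were among the 22636 genes present in every deposited table. Their transcripts were measured by mRNA sequencing of whole 10-day-old Col-0 seedlings, with 2 libraries in each of 4 groups. The mutant groups were arid5, homozygous for an arid5 mutation, chr11/17, homozygous for mutations in both CHR11 and CHR17, and rlt1/2, homozygous for mutations in both RLT1 and RLT2, and the fourth group was wild type (WT). Plants of each group grew on MS plates at 23 °C during 16 h of light and at 21 °C during 8 h of dark. CHR11 and CHR17 are the ATPases of plant ISWI complexes, which move nucleosomes along DNA, RLT1 and RLT2 are DDT-domain proteins that work with them, and the title of the study places ARID5 in such a complex. The alleles are not given in the labels. Nor do the labels say that libraries of a group were grown apart, so the p-values measure the spread between these libraries only, and that spread may be technical.

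B-type cyclins bind cyclin-dependent kinases and drive the passage from G2 into mitosis, after which they are degraded through the anaphase-promoting complex. CDKB kinases are found in plants and differ from the main kinase of the plant cell cycle, CDKA, in that their own transcripts come and go with the cycle, those of the B1 pair from S phase onwards and those of the B2 pair around G2 and mitosis. KNOLLE is the syntaxin that fuses vesicles into the new cell plate at cytokinesis. Transcription of many such genes is set by MYB3R factors, which bind the mitosis-specific activator (MSA) element with the core AACGG. CYCB1;1 is also known as a transcript that accumulates after DNA damage, and CDKB1;1 as a target of E2F factors.

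Depth was 23135817 to 29965298 reads per library over those 22636 genes. ARID5 had 213 and 206 normalised reads in arid5, against 831 and 845 in WT, and RLT2 had 87.8 and 60.6 in the libraries labelled rlt1/2, against 2292 and 2161 in WT. RLT1 was not lower in the libraries labelled rlt1/2 (log2 fold change 0.10 ± 0.09, adjusted p = 0.385 with limma). CHR17 had 771 and 833 normalised reads in the libraries labelled chr11/17, against 1395 and 1316 in WT, but CHR11 had 7226 and 7319 there, against 3077 and 2915 in WT. Counts over a whole gene do not show which part of it is transcribed, so these levels do not test the CHR11 and RLT1 alleles, and both groups are called by their labels throughout.

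The sequences before 5 of the genes are shown because their transcripts had the largest log2 fold changes among those called in the libraries labelled chr11/17, the first higher and the other 4 lower than in WT. Each line gives the 250 bases before the annotated transcript start, 5′ to 3′ on the gene's strand, from the RefSeq TAIR10.1 genome. Capitals mark AACGG or its reverse complement CCGTT.
CYCB1;1, chr4:17624309-17624558, minus strand: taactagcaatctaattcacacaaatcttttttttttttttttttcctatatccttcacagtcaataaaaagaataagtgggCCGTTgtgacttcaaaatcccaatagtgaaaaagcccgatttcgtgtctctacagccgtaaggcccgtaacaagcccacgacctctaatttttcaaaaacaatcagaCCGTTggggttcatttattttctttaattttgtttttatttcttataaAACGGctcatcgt
CYCB1;2, chr5:1861704-1861953, minus strand: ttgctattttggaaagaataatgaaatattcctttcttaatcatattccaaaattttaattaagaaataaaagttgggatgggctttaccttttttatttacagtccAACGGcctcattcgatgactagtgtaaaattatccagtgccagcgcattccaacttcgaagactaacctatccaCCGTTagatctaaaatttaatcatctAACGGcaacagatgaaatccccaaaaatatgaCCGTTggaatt
CYCB2;1, chr2:7663805-7664054, plus strand: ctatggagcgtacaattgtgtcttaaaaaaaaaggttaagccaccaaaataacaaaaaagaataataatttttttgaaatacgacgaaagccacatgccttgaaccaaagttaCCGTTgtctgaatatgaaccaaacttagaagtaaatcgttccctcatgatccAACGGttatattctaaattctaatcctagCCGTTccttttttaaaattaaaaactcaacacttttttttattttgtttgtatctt
KNOLLE, chr1:2711001-2711250, minus strand: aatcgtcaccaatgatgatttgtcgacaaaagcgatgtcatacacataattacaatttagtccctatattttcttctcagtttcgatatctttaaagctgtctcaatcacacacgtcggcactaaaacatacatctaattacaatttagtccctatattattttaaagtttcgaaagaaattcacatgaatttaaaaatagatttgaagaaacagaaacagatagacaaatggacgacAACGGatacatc
CYCB1;4, chr2:11400868-11401117, plus strand: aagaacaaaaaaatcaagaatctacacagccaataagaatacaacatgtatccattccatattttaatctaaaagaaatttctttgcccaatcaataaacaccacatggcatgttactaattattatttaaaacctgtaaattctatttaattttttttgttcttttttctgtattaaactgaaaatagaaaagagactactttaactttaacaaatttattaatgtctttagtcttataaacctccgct
The window of CYCB1;1 held 3 such cores, the nearest 13 to 9 bases before the start. Those of the genes that were lower held, in the order shown, 4, 3, 1 and 0. Over the 10 genes, 6 windows held at least 1 core and 4 held at least 2, the windows of CYCB1;3 and of the first 3 genes shown. Of 27443 protein-coding genes, 20.6% held at least 1 core and 3.6% at least 2. The E2F-type words TTTCCCGC and TTTGGCGC, searched on both strands, were in 0 of the 10 windows and in 0.6% and 0.4% of all windows. The word CTTNNNNNNNAAG, known as the binding site of the DNA damage factor SOG1 and also searched on both strands, was in the windows of CYCB2;1 and CDKB1;2 and in 9.7% of all windows. The CYCB1;1 window had no match to it, which says only that these letters were not within these 250 bases. A match is a run of letters and was not tested as a site. The window of CDKB1;1 holds 163 bases of the annotated gene AT3G54170, and that of CDKB2;1 holds 144 bases of AT1G76550.

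In WT seedlings the most abundant of the 10 transcripts stood about an order of magnitude above the least abundant, per length. Levels between genes are compared in CPM per kb of exon, where CPM is a gene's share of its library's reads after TMM scaling. KNOLLE was the highest at 16.6 CPM per kb, followed by CDKB2;1 at 13.2, CYCB1;2 at 11.9 and CDKB2;2 at 7.24 (WT means, n = 2). CYCB1;4 at 5.97, CDKB1;1 at 4.90, CYCB1;3 at 4.18, CYCB1;1 at 3.47, CDKB1;2 at 3.03 and CYCB2;1 at 1.47 came next. Among neighbours in this order, the WT libraries overlapped for the second with the third gene and for the eighth with the ninth. In arid5 and in the libraries labelled rlt1/2 the first 4 places were held by those 4 genes in the same order, and CDKB1;1 came next, at 8.59 in arid5 and 8.73 in rlt1/2. The order differed in the libraries labelled chr11/17. There CDKB2;1 led at 10.8, CYCB1;1 was second at 10.2, CDKB2;2 followed at 9.90 and KNOLLE at 8.61, and the libraries of each neighbouring pair among these 4 overlapped.

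**Figure D1:**
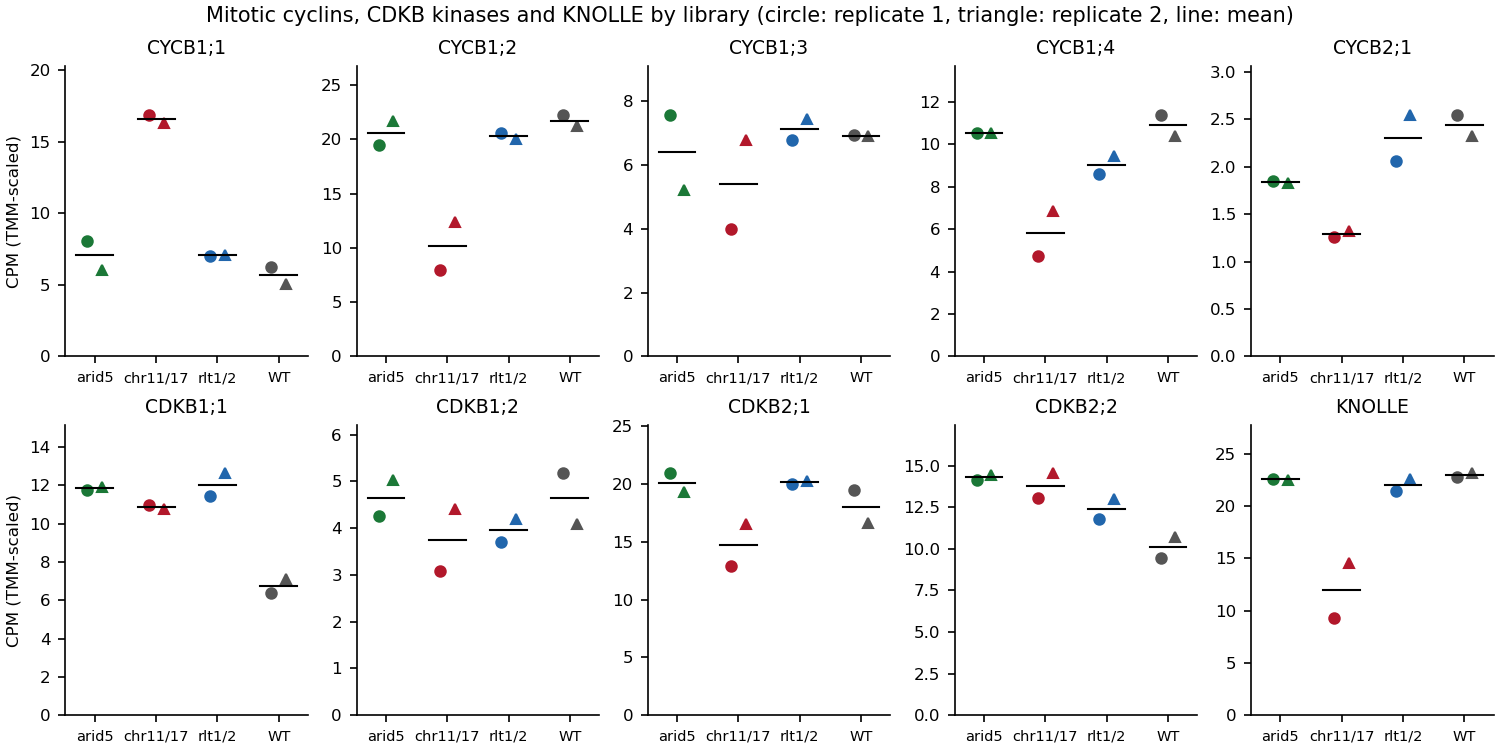
Each panel shows 1 gene, with TMM-scaled CPM on the vertical axis for the 2 libraries of arid5, chr11/17, rlt1/2 and WT (circle, replicate 1, triangle, replicate 2, line, mean). The first cyclin panel stands at 16.9 and 16.3 CPM in chr11/17, far above its other libraries, whereas KNOLLE and most of the other cyclins are lowest in chr11/17, with replicate 1 below replicate 2.

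Each mutant was compared with the WT libraries of its own table by limma's trend method on the log2(normalised reads + 10) scale, and p-values were adjusted over all genes tested. A gene is said to have risen or fallen where the adjusted p was under 0.05. All 10 genes passed the filter on low values in each table, a value of 10 or more in 2 or more of its 4 libraries. In arid5 2 of the 10 genes rose and 0 fell, 3 of them rose and 4 fell for the libraries labelled chr11/17, and for those labelled rlt1/2 1 rose and 0 fell. These comparisons share the WT libraries and are given side by side.

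The background was high. Of all genes tested, 47.9% were called in arid5 (23.3% higher, 24.6% lower), 71.8% in chr11/17 (35.9% higher, 36.0% lower) and 47.9% in rlt1/2 (23.8% higher, 24.0% lower). The 7 of 10 called in chr11/17 lay near the share of all genes, and the 2 and the 1 called in arid5 and rlt1/2 lay below it. The median log2 fold change of the 10 genes was -0.0085 in arid5, -0.36 in chr11/17 and -0.0083 in rlt1/2, beside medians over all genes tested of 0.0031, -0.0075 and 0.0086. The chr11/17 median was -0.10 without chr11/17 replicate 1 and -0.66 without replicate 2. With limma, 0 of the 10 had an unadjusted p under 0.05 in the lower direction in arid5 or in rlt1/2, and edgeR and DESeq2 also called 0 lower in each. Under equal library totals the median over all genes stood at 0.25 in arid5, 0.15 in chr11/17 and 0.27 in rlt1/2. That scaling called 9761 higher and 2677 lower in arid5, beside 4784 and 5062 as deposited, 8874 and 6273 in chr11/17, beside 7485 and 7507, and 9705 and 2691 in rlt1/2, beside 4944 and 4982. With it 5 of the 10 rose in arid5 and 4 in rlt1/2, and the counts in chr11/17 stayed at 3 and 4.

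CYCB1;1, the cyclin that is also induced by DNA damage, moved apart from the other cyclins. It had 399 and 387 normalised reads in the libraries labelled chr11/17, against 150 and 122 in WT. Both chr11/17 libraries lay far above both WT libraries, and the rise was 1.47 ± 0.14 on the log2 scale, or 2.77-fold (adjusted p = 7.76e-05 with limma). In arid5 it had 195 and 144, against 150 and 122 in WT, and the groups overlapped (log2 fold change 0.29 ± 0.17, adjusted p = 0.194). In the libraries labelled rlt1/2 it had 188 and 190, against 166 and 135 in WT. These did not overlap, but the difference did not pass (0.31 ± 0.15, adjusted p = 0.111). Scaled to equal totals, the gene passed in both, at 0.54 in arid5 and 0.57 in rlt1/2, beside the all-gene medians of that scaling given above.

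CYCB1;2, a close relative that also peaks at G2 and mitosis, went the other way in chr11/17. It had 188 and 294 normalised reads in the libraries labelled chr11/17, against 535 and 511 in WT, and fell by 1.12 ± 0.19 (2.17-fold lower, adjusted p = 0.00166). Replicate 1 was well below replicate 2, and both were below WT. In arid5 it had 468 and 524, against 535 and 512 in WT. It had 551 and 534 in the libraries labelled rlt1/2, against 593 and 565 in WT. Neither difference passed, with log2 fold changes of -0.08 ± 0.09 in arid5 and -0.09 ± 0.09 in rlt1/2 (adjusted p = 0.499 and 0.432).

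CYCB1;4, another B1 cyclin, had 112 and 163 normalised reads in the libraries labelled chr11/17, against 274 and 251 in WT. Both libraries lay below WT, and it fell by 0.90 ± 0.19 (1.87-fold lower, adjusted p = 0.00405). In arid5 it had 253 and 254, against 274 and 251 in WT, with the WT libraries on either side. It had 230 and 252 in the libraries labelled rlt1/2, against 303 and 278 in WT. There the groups were apart but the gene was not called (-0.26 ± 0.12, adjusted p = 0.107).

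CYCB2;1, a B2 cyclin and the least abundant of the 10, had 29.7 and 31.5 normalised reads in the libraries labelled chr11/17, against 61.0 and 56.2 in WT, and fell by 0.76 ± 0.18 (adjusted p = 0.00784). The groups were apart, but the call was lost with DESeq2 (adjusted p = 0.0561) and without WT replicate 1 (adjusted p = 0.0592). In arid5 it had 44.6 and 44.2, against 61.1 and 56.3 in WT. Both arid5 libraries lay below WT without passing the test (-0.34 ± 0.19, adjusted p = 0.177). In the libraries labelled rlt1/2 it had 55.0 and 68.5, against 67.5 and 62.3 in WT, and the groups overlapped.

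CYCB1;3, called in no mutant, is the cyclin whose coding sequence is the closest to that of CYCB1;2 among these 5 (76.1% identical, with a longest shared run of 20 bases). It had 93.5 and 162 normalised reads in the libraries labelled chr11/17, against 166 and 166 in WT. Replicate 1 was low and replicate 2 was near WT (log2 fold change -0.40 ± 0.24, adjusted p = 0.169). In arid5 it had 182 and 125, against 167 and 167 in WT. It had 181 and 199 in the libraries labelled rlt1/2, against 184 and 184 in WT. In both, the mutant libraries fell on either side of WT.

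The first and second B1 cyclins can be set against each other within a library. The read ratio of CYCB1;1 to CYCB1;2 was 0.416 and 0.276 in arid5, 2.11 and 1.32 in the libraries labelled chr11/17, 0.341 and 0.355 in rlt1/2, and 0.281 and 0.238 in WT. It was above 1 in both chr11/17 libraries and in none of the other 6. The damage-inducible cyclin made up 17.0% and 13.3% of the reads of the 5 cyclins in arid5, 48.4% and 37.4% in chr11/17, 15.6% and 15.3% in rlt1/2, and at most 12.7% in WT.

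KNOLLE, the cytokinesis syntaxin, had 219 and 347 normalised reads in the libraries labelled chr11/17, against 546 and 558 in WT, and fell by 0.98 ± 0.20 (1.97-fold lower, adjusted p = 0.00343). In arid5 it had 544 and 541, against 547 and 558 in WT, and in rlt1/2 572 and 602, against 606 and 616 in WT. Those libraries lay just below WT, with log2 fold changes of -0.03 ± 0.08 in arid5 and -0.06 ± 0.09 in rlt1/2. The KNOLLE gene (chr1:2709525-2711000, minus strand, TAIR10.1) shares 464 bases with NPQ1 on the opposite strand, and the strand setting of the counting is not stated in the sources used here, so reads of the pair cannot be told apart there. NPQ1, the violaxanthin de-epoxidase of photoprotection, fell by 1.48 in arid5, by 3.20 in chr11/17 and by 1.65 in rlt1/2 on the log2 scale. The part of NPQ1 in the KNOLLE value of chr11/17 was not tested.

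**Figure D2:**
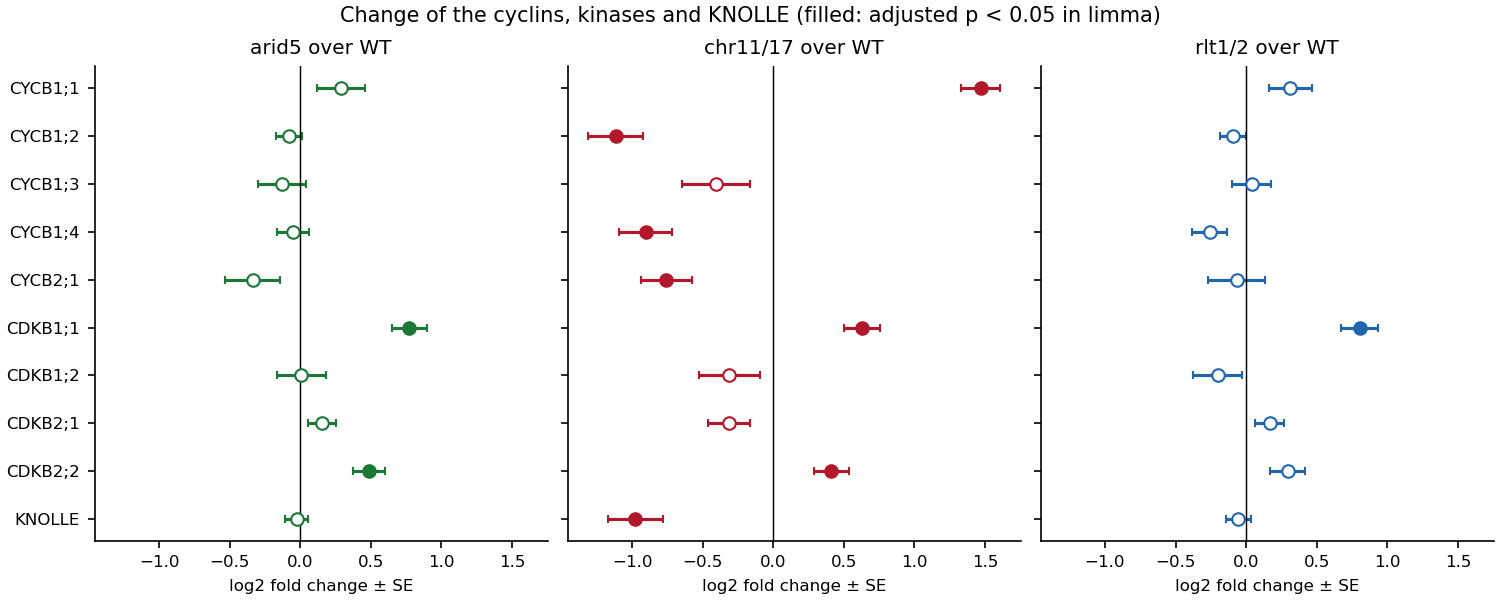
Points give the log2 fold change over WT of each gene in arid5, chr11/17 and rlt1/2, and bars its standard error. Filled points have an adjusted p under 0.05 in limma. The first CDKB gene is filled to the right of 0 in each panel, while in chr11/17 the cyclins spread between 1.47 and -1.12.

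Among the kinases, CDKB1;1 was the only gene of the 10 that rose in all 3 mutants. It had 283 and 288 normalised reads in arid5, against 154 and 172 in WT, a rise of 0.77 ± 0.12 (1.71-fold, adjusted p = 0.000321). It had 259 and 256 in the libraries labelled chr11/17, against 154 and 172 in WT, a rise of 0.63 ± 0.13 (1.55-fold, adjusted p = 0.00343). It had 306 and 338 in the libraries labelled rlt1/2, against 171 and 189 in WT, a rise of 0.80 ± 0.13 (1.75-fold, adjusted p = 0.000285). Every mutant library lay above every WT library of its table, and the calls held in each alternative run. The gene (chr3:20059671-20061488, plus strand, TAIR10.1) shares 71 bases with AT3G54190 on the opposite strand, whose own level moved the other way, by -0.34 in arid5, -0.37 in chr11/17 and -0.43 in rlt1/2.

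CDKB1;2, the second kinase of the B1 pair, was called in no mutant. It had 103 and 121 normalised reads in arid5, against 124 and 99.2 in WT. In the libraries labelled chr11/17 it had 72.6 and 105, against 124 and 99.0 in WT, and in rlt1/2 99.2 and 112, against 137 and 110 in WT. Mutant and WT libraries overlapped in each comparison. The gene shares 281 bases with AT2G38630 on the opposite strand, which fell by 0.93 in chr11/17. The coding sequences of the B1 pair are 85.9% identical with a longest shared run of 41 bases, and how reads matching both were counted is not stated in the sources used here.

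CDKB2;2, a kinase of G2 and mitosis, had 340 and 349 normalised reads in arid5, against 227 and 259 in WT, and rose by 0.49 ± 0.11 (1.40-fold, adjusted p = 0.00377). In the libraries labelled chr11/17 it had 307 and 345, against 226 and 259 in WT, and rose by 0.41 ± 0.13 (adjusted p = 0.0210). This second call was lost without WT replicate 1 (adjusted p = 0.132) or without chr11/17 replicate 2 (adjusted p = 0.0562). In rlt1/2 it had 315 and 347, against 252 and 286 in WT. Here the libraries were apart, but 0.29 ± 0.12 did not pass (adjusted p = 0.0665), and it did pass with the replicate number as a block (adjusted p = 0.0300) or without rlt1/2 replicate 1 (adjusted p = 0.0448). The gene shares 192 bases on the opposite strand with AT1G20925, which has no value in the deposited data of any mutant.

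CDKB2;1, the other B2 kinase and the most abundant of the kinases in each group, was called in no mutant. It had 504 and 465 normalised reads in arid5, against 469 and 401 in WT. In the libraries labelled chr11/17 it had 305 and 394, against 468 and 401 in WT, below WT in both libraries but by a small margin in replicate 2 (-0.31 ± 0.15, adjusted p = 0.0940). In rlt1/2 it had 536 and 542, against 518 and 444 in WT. Scaled to equal totals, it passed in arid5 (0.41) and in rlt1/2 (0.44). The gene shares 44 bases with AT1G76530 on the opposite strand, which fell by 1.58 in arid5, 1.70 in chr11/17 and 1.32 in rlt1/2. The difference between the genes of a kinase pair was not tested.

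Whether the mutants differed from each other was tested on the reads recovered from the tables, with edgeR's quasi-likelihood test over all 8 libraries, and the differences are log2 values from that fit. The libraries labelled chr11/17 differed from arid5 in 5 of the 10 genes (65.1% of all genes were called) and from rlt1/2 in 6 (64.6% of all genes). CYCB1;1 was higher in chr11/17 by 1.24 than in arid5 (adjusted p = 3.65e-05) and by 1.24 than in rlt1/2 (adjusted p = 3.52e-05). The other differences were lower in chr11/17. They were -1.01 from arid5 and -0.99 from rlt1/2 for CYCB1;2, -0.91 and -0.87 for KNOLLE, -0.85 and -0.63 for CYCB1;4, and -0.44 and -0.44 for CDKB2;1. CYCB2;1 was lower than in rlt1/2 only (-0.83), with -0.51 from arid5 not passing (adjusted p = 0.0956). Both B1 kinases, the second B2 kinase and the third B1 cyclin did not pass in either comparison. Without chr11/17 replicate 1, 3 genes instead of 6 differed between chr11/17 and rlt1/2, and the B2 kinase difference from arid5 was lost (adjusted p = 0.0895).

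Between rlt1/2 and arid5, 0 of the 10 genes passed (0.365% of all genes did), with 0 at an unadjusted p under 0.05 and 0 by DESeq2. Log2 differences lay between -0.23 for CDKB1;2 and 0.33 for CYCB2;1. The kinase that rose in all 3 mutants had 11.5 and 12.6 CPM in rlt1/2, against 11.8 and 11.9 CPM in arid5, and these libraries overlapped.

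The replicates labelled chr11/17 themselves stood apart. Replicate 1 was below replicate 2 in 8 of the 10 genes, all but CYCB1;1 and CDKB1;1. Between replicates of a group, the chi-square per degree of freedom over all genes was 5.34 for arid5, 14.4 for chr11/17, 11.3 for rlt1/2 and 3.38 for WT. With replicate 2 left out, 7 of the 10 genes fell in chr11/17, as CYCB1;3 (-0.77), CDKB1;2 (-0.55) and CDKB2;1 (-0.49) joined the 4. With replicate 1 left out, 4 fell. The levels of the 10 genes summed to 121 and 118 CPM in arid5, 84.2 and 105 CPM in chr11/17, 113 and 119 CPM in rlt1/2, and 113 and 108 CPM in WT.

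Other genes of the cell cycle were taken from lists by function, and their counts are to be read against the shares of all genes given above. Some genes named in what follows share bases with genes on the opposite strand, whose reads cannot be told apart from theirs there. Among these named genes, the longest stretches are those of ICU2 (1326 bases), KRP4 (926), AUR2 (877), 3XHMG-BOX1 (517), CCS52B (376) and DEL1 (307). Genes counted on the lists but not named share bases too, among them CYCD6;1 (847), ORC1A (825) and MCM7 (437). Of 11 further B-type and A-type cyclins, 7 fell in the libraries labelled chr11/17 and 4 were not called (median -0.71). With DESeq2 or equal library totals 6 fell there. The list median was -0.54 without chr11/17 replicate 1 and -0.89 without chr11/17 replicate 2. It was -0.62 without WT replicate 1 and -0.64 without WT replicate 2, over the 10 genes then tested. CYCA2;3, an A-type cyclin, had 95.3 and 196 normalised reads there, against 403 and 430 in WT (-1.53 ± 0.29), and CYCA1;1, a mitotic A-type cyclin, fell by 1.15 ± 0.20. CYCB3;1, a B3 cyclin, fell by 0.93 ± 0.20. In arid5 1 of the 11 rose and 2 fell, and in rlt1/2 2 fell. The first of these A-type cyclins fell in both, by 0.42 in arid5 and by 0.46 in rlt1/2, but with equal library totals 2 rose and 0 fell in each. In arid5 0 were called without arid5 replicate 1, and 1 fell and 0 rose with DESeq2, without WT replicate 1 or without arid5 replicate 2, while 1 rose and 0 fell without WT replicate 2. In rlt1/2 1 fell with DESeq2 or without rlt1/2 replicate 1, and 1 also rose without that library or without either WT library.

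Of 18 effectors of mitosis and cytokinesis, 14 fell in chr11/17 and 4 were not called, with a median of -0.89. The number falling there was 12 with DESeq2 or equal library totals. TOPII, the topoisomerase that untangles chromosomes, had 374 and 504 normalised reads in the libraries labelled chr11/17, against 1190 and 1158 in WT (-1.41 ± 0.14, adjusted p = 8.69e-05). PAKRP1L, a phragmoplast kinesin, fell by 1.45 ± 0.21, and 3XHMG-BOX1, a protein of mitotic chromosomes, by 1.15 ± 0.15. Replicate 1 was below replicate 2 in 17 of the 18, the same side as in the cyclins, and 13 fell without replicate 1 and 16 without replicate 2. Summed over the list, levels were 267 and 263 CPM in arid5, 110 and 154 CPM in chr11/17, 255 and 251 CPM in rlt1/2, and 253 and 250 CPM in WT. In arid5 2 of the 18 rose, AUR3 and RSW7, an Aurora kinase and a kinesin of the spindle (0.53 and 0.26). That count was 0 with no filter, with DESeq2 or without arid5 replicate 1, and 1 with a pseudocount of 1 or without either WT library. In rlt1/2 0 were called by limma, with 1 at an unadjusted p under 0.05. Equal library totals gave 9 rising in arid5 and 9 in rlt1/2, at list medians of 0.32 and 0.29 beside the all-gene medians of 0.25 and 0.27. Between chr11/17 and arid5, 15 of the 18 differed in edgeR, all lower in chr11/17, and 13 did so between chr11/17 and rlt1/2.

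KNOLLE works in complexes with the regulator KEULE and with SNAREs that also serve other membrane traffic. Of 6 such partners, 4 rose, 1 fell and 1 was not called in chr11/17 (median 0.48). SNAP33 rose by 0.82 ± 0.07, VAMP722 by 0.72 ± 0.06 and VAMP721 by 0.69 ± 0.06, while KNOLLE fell in the same libraries. NPSN11, named after its values were seen, was the 1 that fell (-0.50). In arid5 1 of the 6 rose, VAMP722 by 0.15, and in rlt1/2 0 were called by limma, with 1 at an unadjusted p under 0.05. The arid5 call was lost with a pseudocount of 1, no filter, edgeR, DESeq2 or the replicate block, and without either WT library or arid5 replicate 1. After scaling to equal totals all 6 rose in arid5 and in rlt1/2, and 2 rose in rlt1/2 without rlt1/2 replicate 1.

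Among 10 genes for MYB3R factors, SCL28 and regulators of the anaphase-promoting complex, 1 rose and 5 fell in chr11/17. SCL28, a GRAS factor that acts in G2 and mitosis, had 89.9 and 111 normalised reads in the libraries labelled chr11/17, against 326 and 353 in WT (-1.67 ± 0.15). CCS52B fell by 1.05 and CCS52A1 rose by 0.51. Both are activators of that complex, and CCS52A1 is known for its part in endoreduplication. In arid5 2 rose, MYB3R4 (0.47) and MYB3R1 (0.28). In rlt1/2 MYB3R1 rose (0.36) and MYB3R5, a repressor type, fell (-0.64). The 5 that fell in chr11/17 became 3 without WT replicate 2, without chr11/17 replicate 1, with equal library totals or with DESeq2, and 2 without WT replicate 1. Equal totals gave 4 rising and 0 falling in arid5 and in rlt1/2. In arid5 1 rose with DESeq2 or without WT replicate 2, and 1 fell without WT replicate 2 or arid5 replicate 2. In rlt1/2 0 fell without WT replicate 1.

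**Figure D3:**
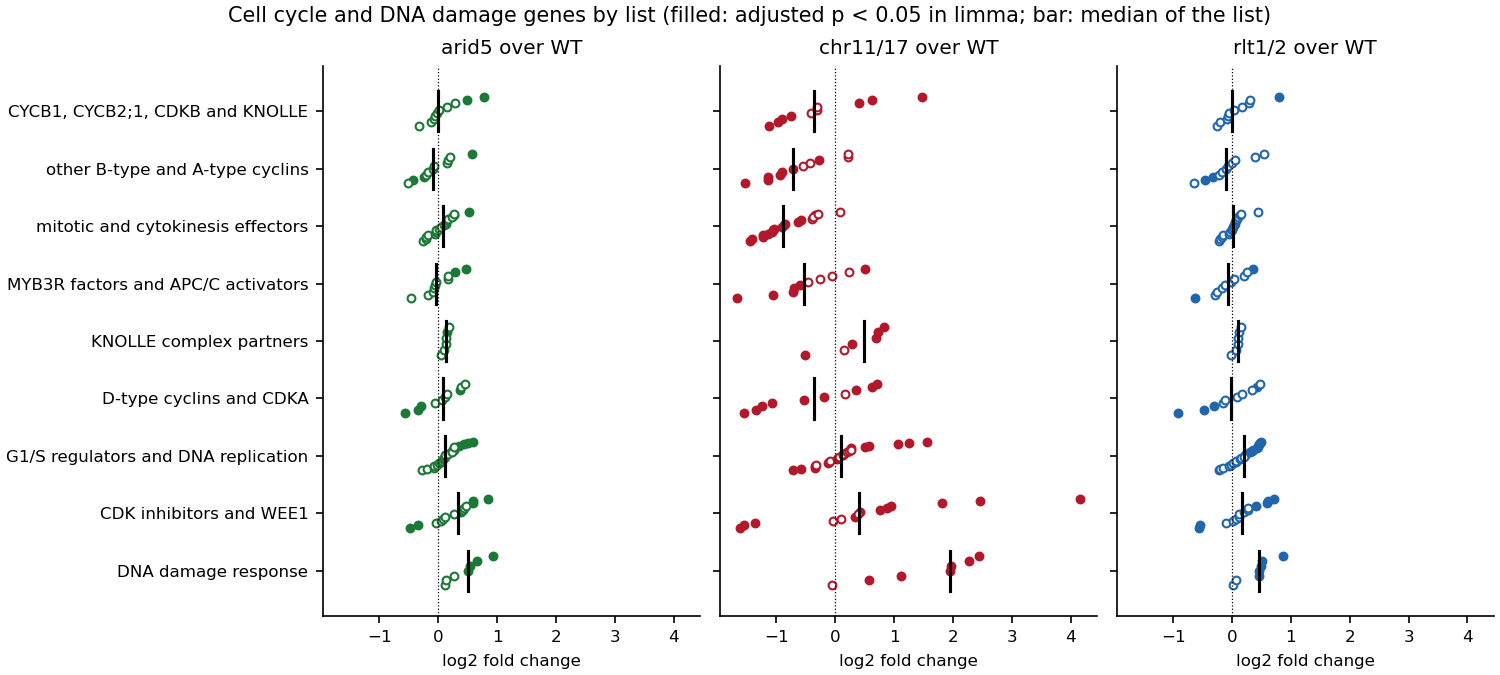
Each point is 1 gene, placed by its log2 fold change over WT in arid5, chr11/17 and rlt1/2 and arranged by list. Filled points have an adjusted p under 0.05 in limma and black bars are medians. In chr11/17 the median lies at -0.89 for mitotic and cytokinesis effectors and at 1.96 for DNA damage genes, and in arid5 and rlt1/2 the DNA damage medians are 0.51 and 0.46.

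Genes of the earlier part of the cycle went in both directions. Of 10 genes for D-type cyclins and CDKA, 3 rose and 6 fell in chr11/17. D-type cyclins link growth signals to entry into S phase. CYCD3;2 had 602 and 697 normalised reads in the libraries labelled chr11/17, against 1358 and 1397 in WT (-1.08 ± 0.09), and CYCD1;1 fell by 1.55 and CYCD4;2 by 1.25. In arid5 and rlt1/2 1 rose and 3 fell each. CYCD3;3 rose (0.38 in arid5 and 0.42 in rlt1/2) and its D3 relative named above fell (-0.34 and -0.47). Without WT replicate 2, 1 rose and 5 fell in chr11/17. The 3 that fell in arid5 became 1 with DESeq2, without WT replicate 1 or without arid5 replicate 1, and 2 without arid5 replicate 2. The 1 that rose became 0 without arid5 replicate 1 and 2 without arid5 replicate 2, and in rlt1/2 3 rose without rlt1/2 replicate 1 or with the replicate block, and 2 rose and 2 fell without WT replicate 1. Under equal totals 6 rose and 0 fell in arid5, and 5 rose and 2 fell in rlt1/2.

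Of 22 regulators of G1/S and DNA replication, 6 rose and 3 fell in chr11/17 (median 0.10), and 10 rose and 2 fell there with equal library totals. TSO2, the small subunit of ribonucleotide reductase, had 5583 and 5444 normalised reads in the libraries labelled chr11/17, against 1924 and 1822 in WT (1.55 ± 0.07). E2FC and CDC6, a transcription factor and a licensing factor of replication origins, rose by 1.25 and 1.08. In arid5 7 of the 22 rose (median 0.11), among them DEL1 (0.59), PCNA1 (0.35) and RBR1 (0.27). In rlt1/2 11 rose (median 0.21), among them the replication genes PCNA1 (0.44), MCM5 (0.36) and ICU2 (0.35). The count in arid5 was 1 with DESeq2, 2 without WT replicate 1 and 4 without arid5 replicate 1. In rlt1/2 it was 6 with DESeq2 or without WT replicate 2, and 7 without WT replicate 1 or rlt1/2 replicate 2. With equal library totals 17 rose in each of these mutants, at list medians of 0.37 in arid5 and 0.48 in rlt1/2.

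CDK inhibitors of the KRP and SIAMESE-RELATED (SMR) families, with the kinase WEE1, restrain these kinases. Of 14 tested of 15 listed, 8 rose and 3 fell in chr11/17. There 7 rose with DESeq2 and 9 with equal library totals, and 3 fell in both. SMR7, an inhibitor known to be induced by genotoxic stress, had 524 and 450 normalised reads in the libraries labelled chr11/17, against 17.9 and 17.7 in WT (4.16 ± 0.16, adjusted p = 2.21e-06). On the CPM scale it was 27.8-fold higher than in WT, and the groups were far apart. SMR3 rose by 2.46 ± 0.14 and KRP4 fell by 1.61 ± 0.11. In arid5 4 rose and 2 fell, and in rlt1/2 4 rose and 2 fell, or 8 and 1 in arid5 and 7 and 1 in rlt1/2 with equal library totals. In rlt1/2 1 rose with DESeq2 and 2 without either WT library or rlt1/2 replicate 2. In arid5 1 instead of 2 fell with no filter, edgeR, DESeq2 or the replicate block, and without any 1 library. KRP4 fell in both (-0.48 and -0.56), whereas SMR7 was not called in either. It had 21.2 and 34.0 normalised reads in arid5, against 17.9 and 17.7 in WT.

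DNA damage response genes were the list with the highest median in chr11/17 among those for the cell cycle, at 1.96. Of its 7 genes 6 rose, also without either chr11/17 replicate, and 5 without WT replicate 2. SOG1, the master factor of the response, which acts through its phosphorylation, was the 1 not called (-0.06, named after its values were seen). GMI1, a repair gene of the structural maintenance of chromosomes type, had 1505 and 1303 normalised reads in the libraries labelled chr11/17, against 245 and 251 in WT (2.45 ± 0.10). PARP2 rose by 2.27 ± 0.10 and XRI1 by 1.96 ± 0.10, and both are known to rise after double-strand breaks. In arid5 4 of the 7 rose (GMI1 0.92, XRI1 0.66, PARP2 0.54) and in rlt1/2 5 rose (GMI1 0.86, XRI1 0.46, PARP2 0.46). The 5 in rlt1/2 became 3 with DESeq2, without WT replicate 2 or without rlt1/2 replicate 1. DESeq2 called 3 higher in arid5, and equal totals gave 7 in each of arid5 and rlt1/2. Between chr11/17 and each of arid5 and rlt1/2, 5 of the 7 were higher in chr11/17 with edgeR. The list summed to 94.1 and 90.2 CPM in arid5, 232 and 217 CPM in chr11/17, 88.1 and 86.7 CPM in rlt1/2, and 64.4 and 66.8 CPM in WT.

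**Figure D4:**
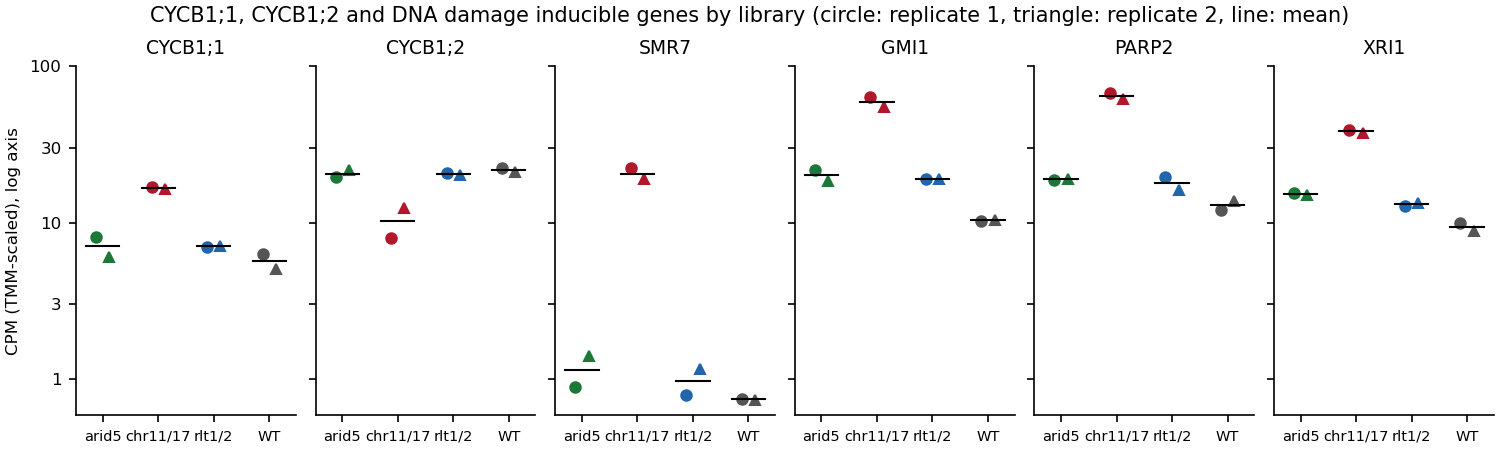
The panels show the first and second B1 cyclins, SMR7, GMI1, PARP2 and XRI1 by library as TMM-scaled CPM on a log axis (circle, replicate 1, triangle, replicate 2, line, mean). SMR7, GMI1, PARP2 and XRI1 are highest in both chr11/17 libraries, as is the first cyclin, while the second is lowest there.

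The seedlings also differed in markers of the tissues that divide or have ceased to, and in whole seedlings fewer cells of a type and less RNA per cell cannot be told apart. All 7 stomatal lineage markers fell in the libraries labelled chr11/17, summing to 20.6 and 25.2 CPM, against 79.7 and 69.5 CPM in WT. SPCH, the factor that starts the divisions of this lineage, fell by 1.60 and TMM, its receptor-like protein, by 2.33. In arid5 2 of the 7 fell (60.1 and 69.7 CPM summed, against 79.7 and 69.5 CPM in WT) and in rlt1/2 1 fell (69.7 and 63.5 CPM). These became 1 in arid5 with DESeq2 and without either WT library or arid5 replicate 1, and 0 in rlt1/2 with DESeq2 and without WT replicate 1 or rlt1/2 replicate 2. With equal library totals 1 stomatal marker rose and 1 fell in arid5, and 0 were called in rlt1/2. The list medians were then 0.15 and 0.16, beside all-gene medians of 0.25 and 0.27. Of the shoot meristem markers, 5 of 7 listed were tested and summed to 60.7 and 62.4 CPM in chr11/17, against 95.1 and 93.0 CPM in WT. There 3 rose and 2 fell, STM at 1.58 and CLV1 and ANT at -1.49 and -1.28. CLV1 averaged 22.0 CPM in chr11/17 against 61.3 CPM in WT, while STM averaged 5.65 CPM against 1.59 CPM. In arid5 1 of the 5 shoot markers rose and 1 fell. In rlt1/2 0 rose and 3 fell, against 1 falling with DESeq2 and 1 rising and 0 falling with equal library totals. Of 5 root meristem markers 1 rose and 1 fell in each of arid5 and rlt1/2, or 2 and 0 with equal library totals. With DESeq2 0 rose and 1 fell in arid5, and 0 were called in rlt1/2. In chr11/17 1 of the 5 rose (WOX5, 1.77) and 1 fell (SCR, -0.61). The 5 root markers summed to 45.6 and 46.3 CPM there, against 58.6 and 54.7 CPM in WT. Without chr11/17 replicate 2, 2 of them fell.

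All 8 photosynthesis markers fell in each mutant, with medians of -1.01 in arid5, -2.75 in chr11/17 and -1.13 in rlt1/2. In rlt1/2 3 of the 8 were called without WT replicate 1 and 3 without WT replicate 2. They summed to 33574 and 37667 CPM in arid5, 8862 and 14028 CPM in chr11/17, 36759 and 30174 CPM in rlt1/2, and 74407 and 71446 CPM in WT. In chr11/17 replicate 1 was below replicate 2 in 8 of 8, as it was in 8 of the 10 cell division genes. The same order held for 10 of 11 further B-type and A-type cyclins and 17 of 18 effectors. It held for 12 of 22 G1/S and replication genes and 5 of 10 genes for D-type cyclins and CDKA. Among CDK inhibitors and WEE1 it held for 6 of 14, among DNA damage genes for 3 of 7 and among KNOLLE partners for 1 of 6. The share over all genes was not counted. The part of these tissue differences in the levels of the cyclins, kinases and KNOLLE was not tested.

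The genes most like the 10 were sought by the root mean square difference, over the 8 libraries, between a gene's log2 CPM centred on WT and the median of the 10. Among 17977 candidates the nearest were AT2G30320 (0.061), AUR2 (0.063), PIN6 (0.063), AT2G37120 (0.068) and FUC1 (0.069). AUR2 is an Aurora kinase of mitosis and PIN6 an auxin transporter. The 10 genes themselves lay farther from their own median, between 0.11 for CDKB2;1 and 0.89 for CYCB1;1.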

How the data were processed

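HISAT2 and edgeR were run against the TAIR10 genome, per the submitters' processing notes, and no version, read counter or strand setting is stated in the sources used here. The authors deposited 3 tables of normalised signal per gene, each holding WT and 1 mutant scaled together. These values were inverted to whole reads. All (100%) came back whole to a relative tolerance of 1e-10, and the WT reads had 0 differences between tables. Each mutant was compared with WT by limma 3.58.1 (R 4.3.3) on log2(value + 10), which understates changes of low genes, for genes of at least 10 in at least 2 libraries. P-values are two-sided and adjusted by Benjamini-Hochberg over the table. Mutants were compared with each other, and levels given, from recovered reads with edgeR 4.0.16 (TMM). Alternatives were DESeq2 1.42.0, edgeR, other scalings, pseudocounts and filters, a replicate block and leaving out libraries. The tests were tried on simulated data. Up to 3 called genes per list and comparison were named, those with the smallest adjusted p, or 1 where none was called. Any other name is marked as chosen with its values known. The genes and lists were chosen with earlier results of these data known. Gene positions, exon lengths and sequences are RefSeq's for TAIR10.1, matched by locus. PCR copies are not independent molecules, so read counts overstate precision.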

Additional observations from a re-analysis of the deposited data

How the results depend on the processing

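With a pseudocount of 1, no filter, a filter at 50, equal library totals, edgeR or DESeq2, the counts of the 10 genes in chr11/17 stayed at 3 rising and 3 to 4 falling. Leaving out a library gave 2 to 3 rising and 3 to 7 falling, the 7 without chr11/17 replicate 2. Over all genes, edgeR on the recovered reads called 4809 higher and 5016 lower in arid5, 7531 and 7466 in chr11/17, and 4925 and 4979 in rlt1/2. In arid5 and rlt1/2 the scaling mattered. With equal library totals, under which the median over all genes stood at 0.25 in arid5 and 0.27 in rlt1/2, 5 genes rose in arid5 and 4 in rlt1/2. The sign of uncalled genes also turned, all to values below those medians. CYCB1;2 was 0.18 in arid5 and 0.18 in rlt1/2, CYCB1;4 0.20 and 0.00674, and KNOLLE 0.23 (adjusted p = 0.0274 with limma) and 0.21. CYCB1;3 was 0.12 in arid5, and in rlt1/2 CYCB2;1 was 0.17 and CDKB1;2 0.052.

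Leaving out a library gave 2 to 3 rising in arid5 and 1 to 2 in rlt1/2. It turned the sign of uncalled genes near 0. In arid5 the log2 fold changes ranged from -0.16 to 0.0018 for CYCB1;2, from -0.38 to 0.12 for CYCB1;3, from -0.11 to 0.012 for CYCB1;4 and from -0.14 to 0.16 for CDKB1;2. In rlt1/2 they ranged from -0.024 to 0.11 for CYCB1;3 and from -0.20 to 0.069 for CYCB2;1. Between chr11/17 and rlt1/2 leaving out a library gave 3 to 7 differing genes, and between chr11/17 and arid5 4 to 6. The cause of these changes was not tested.

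The labels do not say that the replicate numbers pair libraries. Deviations of same-numbered libraries correlated at -0.0025 for arid5, 0.014 for chr11/17 and 0.156 for rlt1/2 with WT, from 2 pairs each. A fit with the replicate number as a block gave 2 of the 10 rising in rlt1/2, where CDKB2;2 was added (adjusted p = 0.0300 with limma), and the same counts elsewhere. Over all genes the block called 5680 higher and 5684 lower in rlt1/2, beside 4944 and 4982 without it. In chr11/17 it called 7387 and 7446, beside 7485 and 7507, and in arid5 4832 and 5083, beside 4784 and 5062. Of the 11 further cyclins it called 2 higher and 3 lower in rlt1/2. CYCB2;1, at 31 to 84 reads a library, rests on the fewest reads of the 10.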
